A study of Mus musculus with 16 samples.

Results

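H3K27ac, the acetylation of lysine 27 of histone H3, was compared between jejunal epithelial cells of wild-type (WT) neonates and of neonates with an intestinal deletion of NCoR1 (KO), and the deposited lists hold 9621 regions that differed between the genotypes, of 23511 regions over all marks. The 9621 are every region of both H3K27ac lists: 7111 where the KO library exceeded the WT library (KO-higher) and 2510 where the WT library exceeded the KO library (WT-higher). Both groups were C57BL/6 mice at postnatal day 12, named F/FUN for WT and ΔIECUN for KO in the series title. The promoter that drove the deletion, the number of animals and any pooling are not given in the sources used here. There was 1 H3K27ac library per genotype, so no value below has a replicate error, no difference was tested, and each comparison describes these libraries. The WT library held 36875401 tags and the KO library 36582907, of which 32095696 and 31846932 were left after duplicates were removed, so the depths were nearly equal.

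NCoR1 is a corepressor that brings the histone deacetylase HDAC3 to nuclear receptors such as LXR, PPAR and the thyroid hormone receptor when these are without an activating ligand. Histone deacetylases remove acetyl groups, and H3K27ac marks active enhancers and promoters. In the small intestine, nuclear receptors govern genes of sterol export, fatty acid use and bile acid handling, and the epithelium changes at weaning from a suckling to an adult set of enzymes.

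Windows reaching 100 bases to either side of the summit are shown for 5 regions, to give the sequence behind the loci and motifs that follow. They are the plus strand of mm9, 5′ to 3′, with motif letters in capitals. Of the motifs searched on both strands, those given here are AGGTCA, the half-site that many nuclear receptors bind, DR1 (that half-site repeated with any 1 base between), DR4 (the same with any 4 bases between) and GGGCGGG (the GC box of SP and KLF factors). Both repeats contain the half-site, so matches overlap. The Ak3 window (chr19:29109155-29109355) was the KO-higher window with a DR4 match, and the Fto window (chr8:93920720-93920920) 1 of 6 with a DR1 match. Both lie in introns. The Areg window (chr5:91574072-91574272) holds a half-site in an intron of the gene of amphiregulin, a growth factor. The Scd2 window (chr19:44357019-44357219) lies at the KO-higher region with the highest -log10 q near Scd2, a fatty acid desaturase, and has none of these letters. The Bzw1 window (chr1:58449681-58449881) lies at a WT-higher promoter region and holds a GC box.
Ak3: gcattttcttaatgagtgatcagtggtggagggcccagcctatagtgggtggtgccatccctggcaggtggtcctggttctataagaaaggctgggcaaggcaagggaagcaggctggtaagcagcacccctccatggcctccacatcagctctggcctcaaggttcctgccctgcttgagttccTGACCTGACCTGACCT
Fto: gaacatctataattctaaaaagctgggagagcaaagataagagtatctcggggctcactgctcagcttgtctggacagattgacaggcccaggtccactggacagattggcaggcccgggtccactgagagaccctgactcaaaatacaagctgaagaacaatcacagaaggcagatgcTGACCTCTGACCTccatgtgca
Areg: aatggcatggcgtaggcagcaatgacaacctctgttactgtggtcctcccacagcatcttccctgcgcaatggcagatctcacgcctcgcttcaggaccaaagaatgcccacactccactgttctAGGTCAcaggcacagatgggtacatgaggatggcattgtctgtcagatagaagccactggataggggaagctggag
Scd2: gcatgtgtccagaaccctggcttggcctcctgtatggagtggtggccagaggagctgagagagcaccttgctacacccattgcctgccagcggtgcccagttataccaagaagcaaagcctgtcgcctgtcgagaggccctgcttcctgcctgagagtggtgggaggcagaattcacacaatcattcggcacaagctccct
Bzw1: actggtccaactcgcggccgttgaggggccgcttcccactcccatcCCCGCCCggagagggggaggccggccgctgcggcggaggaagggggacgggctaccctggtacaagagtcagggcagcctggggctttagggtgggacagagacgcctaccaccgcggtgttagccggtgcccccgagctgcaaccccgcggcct

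The exact repeats were rare. Of 7094 KO-higher windows on chromosomes, 6 held DR1 (0.0846%) and 1 held DR4 (0.0141%), and none of 2506 WT-higher windows held either. Among all 12279060 windows of this length in the genome, 0.0321% held DR1 and 0.00743% DR4. The half-site alone was found in 14.3% of KO-higher and 10.7% of WT-higher windows, beside 11.1% of all windows. Away from promoters these shares were 14.7% and 12.3%, so the lists lay closer together there. The GC box was found in 10.4% of WT-higher and 2.93% of KO-higher windows, beside 1.0007% of all windows. Base composition differed between the lists, and among regions with a GC content of 50 to 60% the GC box shares were 3.83% and 2.61% and the half-site shares 13.1% and 15.1%. A match is a run of letters and shows no binding.

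The regions were narrow in both directions, and the contrast between the genotypes was moderate at most of them. Each region has a pileup (the number of tag fragments stacked at its summit) and a fold over the local background in the other genotype's library, and both are the authors' values. The median width was 185 bp for WT-higher and 193 bp for KO-higher regions. The narrowest, at 152 and 164 bp, equal the fragment lengths in the file headers, and 3 WT-higher and 9 KO-higher regions were at least 1 kb wide. The median fold was 2.57 for WT-higher and 2.52 for KO-higher regions, and the highest folds were 9.38 and 12.9. A fold of at least 4 was reached by 14.5% of WT-higher regions (95% Wilson interval 13.2 to 15.9) and 10.7% of KO-higher regions (10.004 to 11.4). Intervals here cover counting error only.

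At most regions the other genotype's library also had tags above the lowest background that the list holds. Whether these tags reflect acetylation there was not tested, since the input libraries were not analysed here. The other genotype's background, recovered from pileup and fold, had a median of 20 tags at WT-higher and 26.8 tags at KO-higher regions, whose median pileups were 54.6 and 71. It lay at the lowest value that the list holds in 1.71% of WT-higher and 0.802% of KO-higher regions. Regions with more tags had lower folds. Spearman's rho between pileup and fold was -0.76 across WT-higher and -0.64 across KO-higher regions, which share their 2 libraries. The fold is computed from the pileup, and small folds reach the q threshold at high pileups only, so this relation is a description of the lists. Among regions with a pileup under 25 the median fold was 3.97 for WT-higher and 3.83 for KO-higher regions, and at 100 or more it was 1.81 and 1.96. More mark per cell and more cells with the mark cannot be told apart in such bulk material.

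**Figure D1:**
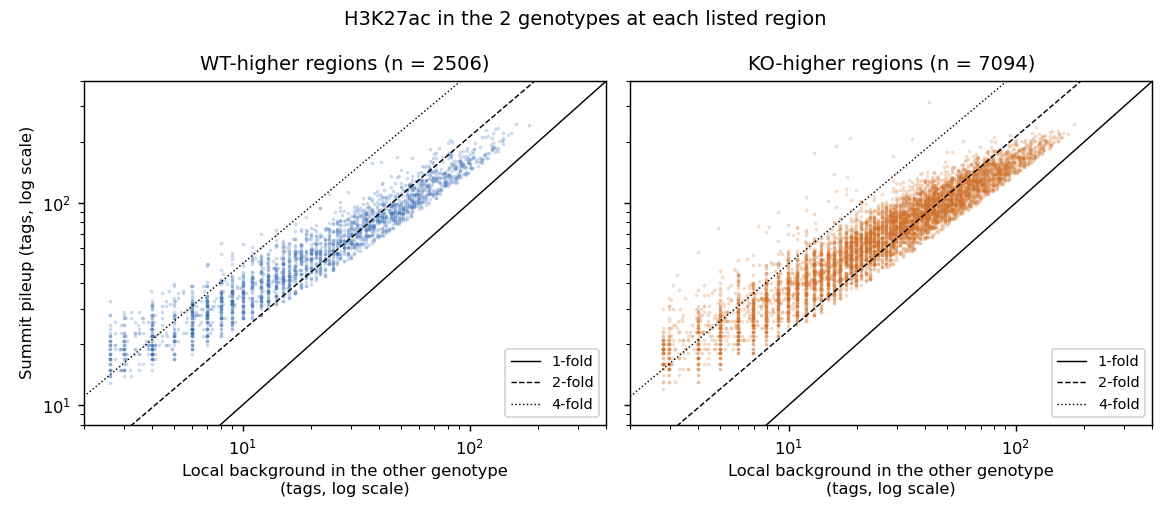
Summit pileup (vertical axis, tags, log scale) against the local background in the other genotype (horizontal axis, tags, log scale) for 2506 WT-higher and 7094 KO-higher H3K27ac regions on chromosomes, 1 point per region. Lines mark 1-fold, 2-fold and 4-fold differences, computed with 1 added to both values. Points above the 4-fold line thin out as the background rises.

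The directions differed in where they lay. Of WT-higher regions, 37.4% (35.6 to 39.3) had their summit at a promoter, within 1 kb of the start of a protein-coding gene, against 8.01% (7.398 to 8.66) of KO-higher regions, while promoters make up 2.26% of genome bases. Introns held 50.5% of KO-higher and 29.5% of WT-higher regions, beside 34.1% of bases. Intergenic sequence held 35.6% and 28.8%, beside 61.5% of bases, and exons 5.84% and 4.31%, beside 2.09%. More than 10 kb from any start lay 55.4% of KO-higher and 46.3% of WT-higher regions. Promoter regions had low folds in both lists, with medians of 2.08 (WT-higher) and 1.96 (KO-higher), and high pileups, with medians of 84.3 and 116. Regions more than 100 kb from a start had median folds of 3.40 and 2.86.

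Part of this difference in location moved with base composition. The median share of G and C bases was 59.5% for the WT-higher list and 54.9% for the KO-higher list, and 46.6% of WT-higher but 7.54% of KO-higher regions had a GC content above 60%. Among regions with a GC content of 50 to 60%, promoters held 14.3% of WT-higher and 6.44% of KO-higher regions. Above 60% they held 64.4% and 29.5%. WT-higher regions thus had the higher promoter share in both of these classes. Set beside the whole lists, the gap was narrower in the middle class and wider above 60%. Below 50% the order was the reverse, with 2.86% of 35 WT-higher and 4.30% of 582 KO-higher regions at promoters. The part of base composition in the difference between genotypes was not tested.

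**Figure D2:**
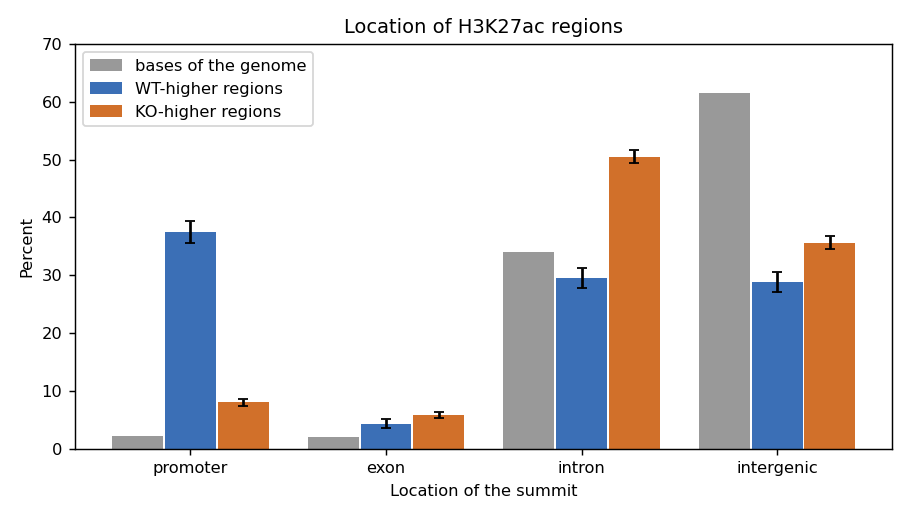
Share of H3K27ac regions by the location of their summit (percent, vertical axis), with 95% Wilson intervals as bars, for WT-higher and KO-higher regions, and the share of genome bases in each class (grey). Promoters hold 37.4% of WT-higher and 8.01% of KO-higher regions, and introns 29.5% and 50.5%.

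KO-higher regions lay in clusters far more often than WT-higher regions. Clusters were runs of at least 3 regions of a list with gaps of at most 12500 bp. They held 53.6% of KO-higher regions (52.4 to 54.8) in 742 clusters and 12.4% of WT-higher regions (11.1 to 13.7) in 76 clusters. The KO-higher list is the longer one, which by itself brings its regions closer together. When it was cut to the 2510 regions with the highest -log10 q, clusters held 32.2% of it (30.4 to 34.1). The median distance from a KO-higher region to the next of its list was 3.20 kb, and from a WT-higher region 96.8 kb. Within 10 kb of a KO-higher region lay 1.56% of WT-higher regions, whereas 25.98% had another WT-higher region that close. The share of the genome within 10 kb of a KO-higher region was not computed. These values therefore do not show whether the lists keep apart from each other. KO-higher clusters of 10 or more regions numbered 58, and WT-higher ones 4.

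**Figure D3:**
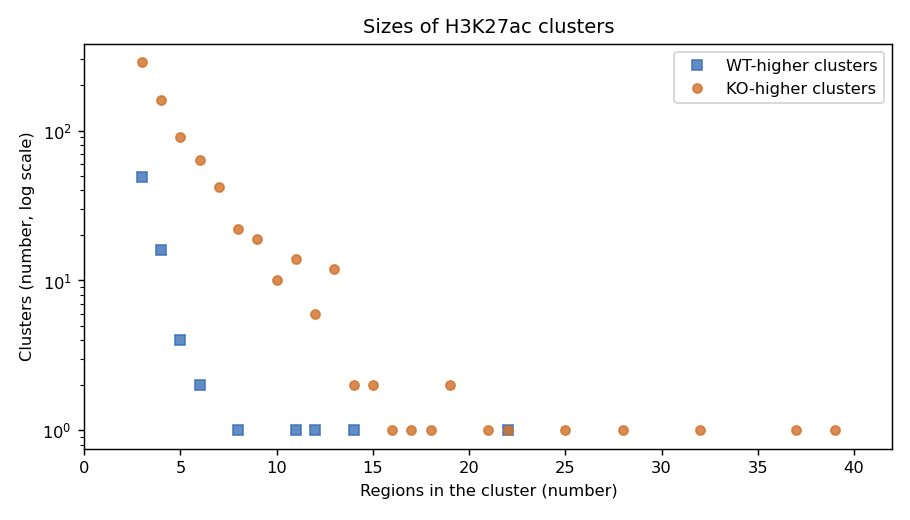
Number of clusters (vertical axis, log scale) by the number of H3K27ac regions in the cluster (horizontal axis), for 742 KO-higher clusters (circles) and 76 WT-higher clusters (squares). KO-higher clusters reach 39 regions and WT-higher clusters 22.

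The KO-higher clusters with the most regions lay at genes of lipid handling and at Vegfa. The one at Srebf1, which encodes a transcription factor of lipid synthesis, and Tom1l2 had 39 regions over 49.6 kb (chr11:60011439-60061053), with a median fold of 2.69. Its regions covered 33.7% of the stretch, and 9 lay at promoters. The cluster at Vegfa, a growth factor for blood vessels, had 37 regions over 79.7 kb (chr17:46086672-46166407), a median fold of 2.22 and no region at a promoter. Regions covered 15.4% of the Vegfa stretch. No fold in these 2 clusters was above 4.65. At Ppara, the gene of a fatty acid sensing nuclear receptor, and 2210021J22Rik, 32 regions lay over 58.8 kb (chr15:85564753-85623585), with a median fold of 2.88 and a highest of 6.75. A cluster at the paired sterol exporters Abcg5 and Abcg8 and their neighbour Dync2li1 had 25 regions (chr17:85042991-85089805) with folds up to 4.02.

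The cluster at Scd2 and Scd3, desaturases that make monounsaturated fatty acids, was the steepest of these 5. It had 28 regions over 53.9 kb (chr19:44320830-44374767) and a median fold of 5.78, more than 2 times the median of all KO-higher regions, 2.52. The 20 regions assigned to Scd2 had pileups of 23 to 202 in KO over WT backgrounds of 2.98 to 58.5. The region with the highest -log10 q, whose window is printed above, had a pileup of 139 over a background of 15.9 and lay 11047 bp upstream of the start. At the start itself, the region chr19:44367455-44369003 had a pileup of 78 over 9.92, a fold of 7.23. H3K27me3, a methylation of the same lysine that marks silenced genes, was WT-higher at 9 regions of this stretch. Of the 8 KO-higher H3K27ac regions on chromosomes that shared bases with WT-higher H3K27me3, 6 belonged to Scd2, 1 to Scd3 and 1 to Dmrt3. The neighbouring Scd1 had 7 KO-higher regions, with pileups of 18 to 171 and folds of 2.88 to 10.7. Its highest -log10 q lay not at the promoter but 18886 bp downstream of the start.

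The sterol exporter genes Abca1 and Abcg1 had most of their KO-higher regions away from their starts. Abca1, the exporter that loads cholesterol onto apolipoprotein A-I, had 9 KO-higher regions and no WT-higher one. The promoter region (chr4:53171546-53172823) had a KO pileup of 151 over a WT background of 32.7, a fold of 4.50. The other 8 lay 22395 to 43205 bp upstream, with pileups of 19 to 88 over backgrounds of 2.98 to 16.9 and folds of 4.03 to 8.80. Abcg1, a second sterol exporter, had 8 KO-higher regions, all 8708 to 21510 bp downstream of the start and none at the promoter, of which the one with the highest fold lay in an intron, with a pileup of 76 over 8.17 (fold 8.40).

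Vil1 had the KO-higher regions with the highest -log10 q, and there every mark with a KO-higher list was higher in KO. Vil1 encodes villin, an actin bundler of the brush border. A stretch of 13.04 kb over its 5′ end (chr1:74448659-74461702) held 9 KO-higher H3K27ac regions, with pileups of 69 to 314 over WT backgrounds of 10.4 to 41.7 and folds of 4.04 to 12.7. It included the widest region of either list, 6417 bp, with a -log10 q of 151. The same stretch held 10 KO-higher H3K9ac, 8 KO-higher H3K4me3 and 11 KO-higher H3K9me3 regions, although H3K9me3 marks silenced chromatin. All 9 H3K27ac regions shared bases with KO-higher H3K9me3. The 3 other Vil1 regions, downstream of the stretch, had folds of 3.14 to 4.78 and met no region of another mark. Mt1, the gene of a metal-binding protein, had 2 KO-higher regions (folds 1.82 and 2.28) that also met KO-higher H3K9me3. Apart from these 11, KO-higher H3K9me3 met 2 KO-higher H3K27ac regions on chromosomes, 1 at Slc25a15 and 1 with no start within 50 kb. The input libraries were not analysed here, and the part of DNA amount in these values was not tested.

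Other KO-higher regions with the highest folds stood alone or in small groups. The highest of all, 12.9, was a region with a pileup of 75 over 4.90 (chr17:36220661-36221247), 25560 bp from the start of Gm11127. It also met KO-higher H3K9ac and H3K4me3. At Glrx2, the gene of a mitochondrial glutaredoxin, a region 9974 bp upstream had a pileup of 57 over 3.97 (fold 11.7), while the promoter region had a fold of 2.78. A region in an intron at Gm960 reached 9.75, with a pileup of 39 over 3.10. Areg had 11 KO-higher regions with folds of 1.42 to 7.05. Its promoter region had a pileup of 189 over 133, and the intron region printed above had 55 over 6.95. Tags were thus many in both libraries at the promoter and mostly in KO at the intron.

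WT-higher regions with the highest folds rested on few tags. The highest fold, 9.38, lay 7116 bp upstream of Dynlt1b, a dynein light chain gene, with a pileup of 32.7 over a KO background of 2.60, the lowest that the list holds. Next were a region near Ttn, the gene of the muscle protein titin, and a region at chr7:143252539-143252770, far from any start, both with 27.8 over 2.60 (fold 7.997). The next by fold with a gene within 50 kb was Kcns2, a potassium channel subunit gene, with 28.8 over 3 (fold 7.44), and an exon region of Arhgap44 had 63.5 over 8 (fold 7.17). By -log10 q the order was different. Promoter regions of Dynlt1b (157.8 over 37, -log10 q 39.6) and Bzw1 (159.8 over 40.8, -log10 q 36.4) led, and regions near Chst12 (70.4 over 12) and Mical3 (94.3 over 22) were among the first 10.

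WT-higher clusters with the most regions lay at few genes with known roles in the epithelium. The first, at Tmem181b-ps and Dynlt1b (chr17:6422004-6476546), had 22 regions with a median fold of 3.43. In the surrounding 230.2 kb (chr17:6270517-6500694), which reaches Tmem181a, there were 31 WT-higher H3K27ac regions and also 49 of H3K4me1, 33 of H3K9ac, 21 of H3K4me3, 19 of H3K27me3 and 9 of H3K9me3, all WT-higher, and no KO-higher region of any mark. Active and silencing marks thus moved in 1 direction there, and the part of DNA amount was not tested. A stretch of chromosome 7 without a protein-coding start within 50 kb (chr7:143178494-143216586) had 14 regions with a median fold of 4.29, and 12 WT-higher H3K4me1 regions. A run of predicted genes around Gm13287 (chr4:88409142-88451786) had 12 regions, 11 of them at promoters, with a median fold of 2.204. Reads of near-identical copies could be split between such genes. Padi3, a peptidylarginine deiminase gene, had 11 regions (folds 2.53 to 4.84). The fifth cluster, of 8 regions, lay at chr11:118686551-118718072, within Rbfox3 but more than 50 kb from any protein-coding start.

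A region was assigned to the protein-coding gene with the nearest start within 50 kb of its summit. Of 21825 genes, 1613 (7.39%) had a WT-higher region, 2467 (11.3%) a KO-higher region and 149 both. These shares of all genes were not limited to genes expressed in this tissue. They include 1113 olfactory receptor genes, of which 0.449% had a WT-higher and 0.180% a KO-higher region. KO-higher regions gathered on fewer genes per region. At least 5 regions were found at 326 genes (13.2% of those with any) in the KO-higher list and at 17 (1.05%) in the WT-higher list. Vegfa had 27 KO-higher regions, Srebf1 26, and Fam102a, Ppara and Smad3, which carries TGF-beta signals, 22 each. Nr1i2, the xenobiotic receptor PXR, and Scd2 had 20 each. In the WT-higher list Tmem181b-ps had 14, Padi3 11, Dynlt1b and Thsd4 10 each, and Podxl, the gene of the surface protein podocalyxin, 9. Without the stretches at Vil1, Mt1 and Dynlt1b, 2466 and 1610 genes were left in the KO-higher and WT-higher lists. At the 149 genes with both directions, 30.5% of the WT-higher but 7.23% of the KO-higher regions lay at promoters, and the closest opposite summits, at Cdc37, a partner of the chaperone HSP90, were 481 bp apart.

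The deleted gene itself had no WT-higher region. Ncor1 had 5 KO-higher regions, with KO pileups of 26 to 159, 1 of them within the gene. These values do not measure the deleted sequence and check no genotype. Of 19 genes of corepressor complexes and histone deacetylases, 5 had a KO-higher region (26.3%, beside 11.3% of all genes) and 1 a WT-higher region (5.26%, beside 7.39%). The KO-higher ones were Ncor1, Tbl1x (37 over 4.96, fold 6.37) and Tbl1xr1 (32 over 6.95, fold 4.15), both of the NCoR complex, the corepressor gene Nrip1 (9 regions, highest fold 4.57) and Hdac5 (2.56). Hdac4 was WT-higher, at 39.7 over 9, which is lost when the start must lie within 10 kb. Of 16 acetyltransferase and coactivator genes, 5 had a KO-higher region (31.3%, beside 11.3% of all genes) and none a WT-higher one, against 1 by gene body and 7.39% of all genes. The KO-higher ones included Ppargc1a, a coactivator of mitochondrial genes (117 over 34.7, fold 3.30).

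Among 48 nuclear receptor genes, 15 had KO-higher regions (31.3%, 80 regions, beside 11.3% of all genes). WT-higher regions, 7 in number, lay at 6 of the 48, beside 7.39% of all genes. In both directions the share of this list lay above that of all genes. Ppara and Nr1i2 carried 42 of the 80 between them. The Ppara region with the highest fold had a pileup of 115 over 16.2, in an intron. Nr1h4, the bile acid receptor FXR, had 5 regions, with 40 over 7.94 at the highest fold (4.59), and Ppard 4 (65 over 16.8, fold 3.70). Nr1h2, the gene of LXR beta, had 1 region of fold 2.16, and Thra, a thyroid hormone receptor gene, 4 with folds up to 2.32. WT-higher regions lay at Nr5a2, a receptor of crypt cells (65.5 over 14, fold 4.43), Pgr, Nr2f2, Nr4a3, Rora and Rxra, the shared partner of LXR and PPAR (fold 2.23). With a -log10 q of at least 5, 2 of these 6 were left.

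Lipid genes were the lists with the largest KO-higher shares. Of 18 genes of sterol export and fatty acid synthesis, 13 had KO-higher regions (72.2%, 117 regions, beside 11.3% of all genes). None had a WT-higher one (1 by gene body), beside 7.39% of all genes. Of these 13, 9 had a KO-higher region at a promoter. The median of each gene's highest fold was 4.02 in this list, beside 2.89 over all genes with a KO-higher region. Lpcat3, which remodels phospholipids, had 12 regions (68 over 14.7 at the highest fold, 4.40). Members with no region in either direction were Fasn and Acaca, of fatty acid synthesis proper, and Mylip, Lpl and Pltp. Cholesterol synthesis and uptake differed, with 5 of 15 genes in each direction (33.3%, above the share of all genes in both). Lss, Sqle, Dhcr7 and Cyp51, enzymes of the synthesis, and Srebf2, its main activator, had WT-higher regions with highest folds of 2.24 to 2.73. The KO-higher members included Insig1 (fold 1.97) and Insig2 (fold 3.95), which hold that activator back, and Fdft1, a synthesis enzyme (fold 2.32). By gene body instead of nearest start, the KO-higher count of this list was 1, and with a -log10 q of at least 5 the WT-higher count was 3.

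Fatty acid oxidation had KO-higher regions at 17 of 23 genes (73.9%, 82 regions, beside 11.3% of all genes). A WT-higher region lay at 1 (4.35%, beside 7.39% of all genes), Acadm (35.7 over 10, fold 3.34). Ehhadh, of peroxisomal oxidation, had 9 regions, with 74 over 13.2 at the highest fold (5.29). Pdk4, which restrains glucose oxidation, had 107 over 23.8 (fold 4.35), and Cd36, a fatty acid transporter, 42 over 7.94 (fold 4.81). Fabp1, a fatty acid binding protein, had 9 regions. The median of the highest folds, 3.10, was near the 2.89 of all genes with a KO-higher region, so the list stood out by its share of genes more than by fold. Of 12 chylomicron genes, 9 had KO-higher regions, at a lower median of 2.34. They included Apob (33 over 7.94, fold 3.804) and Mttp (36 over 9.92, fold 3.39), which load fat onto lipoproteins. Bile acid handling had 5 of 10 (50.0%, beside 11.3% of all genes), led by the exporter gene Abcc2 with 10 regions (38 over 6.35, fold 5.30). With a -log10 q of at least 5, 3 of these were left.

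Enterocyte lists had larger KO-higher than WT-higher shares, an order that all genes also had (11.3% and 7.39%). The KO-higher shares of these lists lay above that of all genes. Of 18 brush border genes, 11 had KO-higher regions (61.1%, 65 regions). Vil1 had 12 of these regions and the highest fold (12.7), and 9 of the 12 lay in the stretch where H3K9me3 was also KO-higher. The aminopeptidase gene Anpep was the 1 member with a WT-higher region, at its promoter (74.4 over 30, fold 2.43). Mgam, a disaccharidase, had 75 over 10.9 (fold 6.38), and Eps8, an actin regulator of microvilli, 56 over 9.92 (fold 5.22). Suckling genes had KO-higher regions at 9 of 18 (50.0%) and adult genes at 4 of 12 (33.3%). Cps1, a urea cycle enzyme of the suckling gut, had 35 over 5.95 (fold 5.18), and Slc5a1, the glucose transporter SGLT1 of the adult list, had 10 regions, with the highest fold at the promoter (33 over 6.53, fold 4.51). Amn, a partner of the receptor cubilin, was WT-higher at 26.8 over 3.66 (fold 5.96). Transcription factors of the enterocyte had KO-higher regions at 8 of 18 and WT-higher ones at 4, or at 1 when regions were assigned by gene body. Prdm1, Isx, Hnf4g, Gata4, Creb3l3 and Hnf4a were among those with KO-higher regions, Elf3, Gata5 and Klf4 had WT-higher ones, and Maf had both. Gluconeogenic and glycolytic genes had KO-higher regions at 9 of 19 (47.4%), with Fbp1 (58 over 13.9, fold 3.96) and G6pc (33 over 7.94, fold 3.804) highest.

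Stem cell and imprinted genes had larger WT-higher than KO-higher shares, while over all genes these shares were 7.39% and 11.3%. In both directions the shares of these lists lay above those of all genes. Growth signals had the larger KO-higher share, the order that all genes also had. Of 19 genes of stem cells and Wnt signalling, WT-higher regions lay at 6 (31.6%) and KO-higher ones at 4 (21.1%). Znrf3, which limits Wnt receptors, had 20.8 over 2.60 (fold 6.07), and the proliferation factor gene Myc 56.6 over 18 (fold 3.03), at its promoter. Tcf7l2, the Wnt effector, had both directions, and Rnf43, a relative of Znrf3, had 7 KO-higher regions. Imprinted genes had WT-higher regions at 6 of 17 (35.3%) and KO-higher ones at 3 (17.6%). Igf2, the fetal growth factor, had 4 WT-higher regions with pileups of 17.9 to 56.6 over KO backgrounds of 2.60 to 11. Dlk1 had 18.9 over 2.75 (fold 5.30), and Cdkn1c, a cell cycle inhibitor, a highest fold of 2.87. Of 24 genes of growth signals, 6 had KO-higher regions and 2 WT-higher ones. Ereg, the gene of epiregulin and a relative of Areg, had a highest fold of 5.26. It rested on few tags, 19 over 2.80, the lowest background that the KO-higher list holds. Clock genes had KO-higher regions at 7 of 17 (41.2%), led by Nfil3 (72 over 11.9, fold 5.66), and WT-higher ones at 2. With a -log10 q of at least 5, no KO-higher imprinted gene and no WT-higher growth signal gene was left. At that threshold the stem cell list had 4 genes in each direction, so its order was lost. With starts within 10 kb the KO-higher count of the stem cell list was 2.

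Markers of other cell types had regions at shares near or below those of all genes (7.39% WT-higher and 11.3% KO-higher). Neither direction reached any of 16 immune genes. Of 19 stromal, endothelial and muscle genes, 1 (Lum) had a WT-higher region (5.26%), and of 11 neural and glial genes 1 (Snap25) had a KO-higher one (9.09%). Goblet and Paneth genes had 1 KO-higher member of 11 (Pnliprp2, 9.09%), and enteroendocrine and tuft genes had Chga of 16 in both directions (6.25%). Proliferation genes had WT-higher regions at 3 of 20 (Ccne1, Aurkb, Cdk1), a share above that of all genes, and a KO-higher one at Ccne1, and with a -log10 q of at least 5 none of these was left. The lists hold differences between libraries, so absence from them gives no level of the mark and does not check the labelled cell type.

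**Figure D4:**
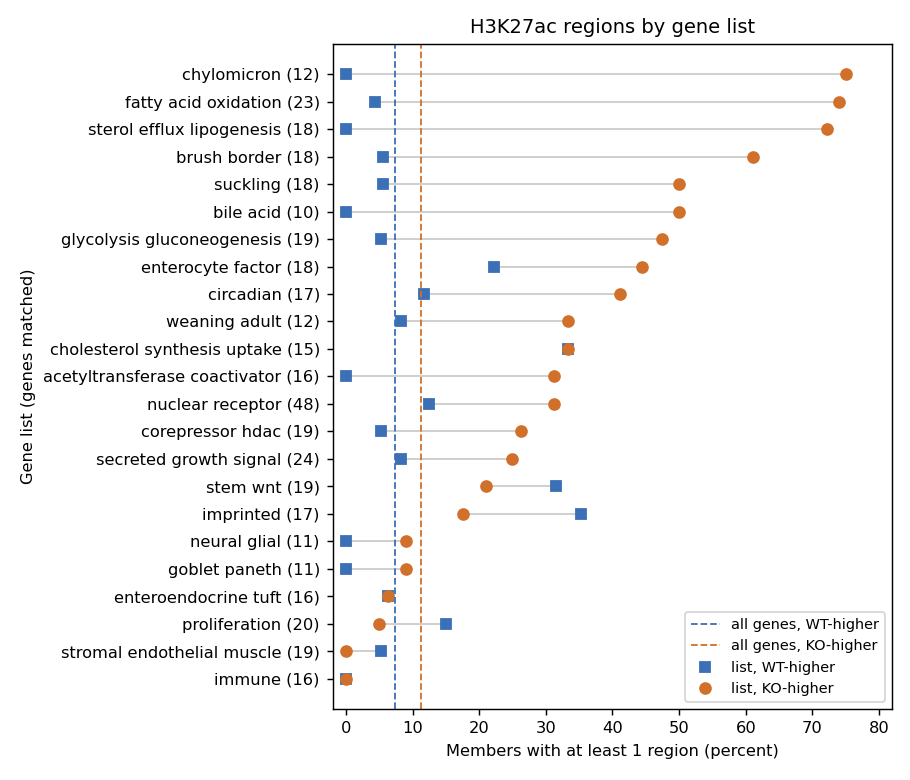
Share of the matched members of 23 gene lists (percent, horizontal axis) with at least 1 WT-higher (squares) or KO-higher (circles) H3K27ac region, with the number of matched genes in brackets. Dashed lines mark 7.39% and 11.3% of all genes. Chylomicron, fatty acid oxidation and sterol lists lie above 70% for KO-higher, and immune genes at 0 in both. The lists were chosen with earlier results of these data known.

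H3K27ac regions shared bases with H3K9ac, another acetylation of active chromatin, in the same direction. Of KO-higher regions, 10.24% (9.55 to 10.96) met KO-higher H3K9ac, which is 38.9% of the KO-higher H3K9ac list. Of WT-higher regions, 16.2% (14.8 to 17.7) met WT-higher H3K9ac, 19.4% of that list. In opposite directions, 1 region of each H3K27ac list met H3K9ac. Within KO-higher clusters, 14.95% of regions met KO-higher H3K9ac, against 4.76% outside them. WT-higher regions met WT-higher H3K4me3, a promoter mark, in 13.4% of cases, and 74.5% of those lay at promoters. WT-higher H3K4me1, an enhancer mark, met 7.81% of WT-higher and 1.17% of KO-higher regions. The median fold did not move in 1 direction with the number of other active marks (H3K9ac, H3K4me3 or, WT-higher only, H3K4me1) listed in the same direction. For KO-higher regions it was 2.55 with none (6358 regions), 2.29 with 1 (707) and 4.50 with 2 (29). Of those 29, 8 belong to the Vil1 stretch, and the other 21 had a median fold of 3.17. For WT-higher regions it was 2.65 with none, 2.35 with 1 and 2.48 with 2 (174 regions).

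Chromosome 19 stood out by its share of KO-higher regions. It had 426 KO-higher and 61 WT-higher regions (87.5% KO-higher, 84.2 to 90.1), or 58.8 KO-higher regions per 100 genes, and holds Scd1, Scd2 and Abcc2. The X chromosome had 54 and 43 (55.7%, 45.8 to 65.2), or 5.79 and 4.61 per 100 genes, the fewest of the chromosomes used in either direction. Chromosome 18 was not analysed here. The other chromosomes lay between 64.2 and 80.7% KO-higher. A further 15 regions lay on a sequence named UGT1A, which is no mouse chromosome and whose origin none of the sources used here gives. Its 3 WT-higher regions (folds 2.67 to 3.35) lay at positions 51763 to 65496, and its 12 KO-higher regions (folds 1.503 to 2.56) at positions 126989 to 180303. The labels' protocols name a human reference genome beside the mouse one, without saying for which libraries. UGT1A genes encode enzymes that attach glucuronic acid to bilirubin and drugs. Of 21 mouse genes with Ugt symbols, none had a WT-higher region, beside 7.39% of all genes. KO-higher regions lay at 10 (47.6%, beside 11.3% of all genes), among them Ugt1a9 (33 over 5.95, fold 4.89) and Ugt1a1 (128 over 66.5, fold 1.91, at its promoter).

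RNA changes were set beside the number of H3K27ac regions per gene, using the authors' deposited table, whose genes lie near WT-higher H3K4me1 regions and are no sample of all genes. Of 1296 genes covered by the authors' deposited table, RNA was higher in KO for 75 (5.79%) and lower for 136 (10.5%) at an FDR (false discovery rate) under 0.05. The RNA libraries are not among these samples. Where genes had KO-higher regions alone, the authors' deposited table had higher RNA for 12 of 69 genes with 1 region, 6 of 34 with 2, 15 of 42 with 3 to 4 and 30 of 53 with 5 or more. Lower RNA was listed in the authors' deposited table for 4, 1, 0 and 2 genes of these classes. The median log2 fold change in the authors' deposited table was 0.09, 0.10, 0.17 and 0.37 in these 4 classes. With a KO-higher promoter region, 64.9% of 37 genes had higher RNA in the authors' deposited table, against 24.2% of 161 without one. For genes with WT-higher regions alone, the authors' deposited table had lower RNA for 24 of 157 genes with 1 region, 19 of 54 with 2, 9 of 25 with 3 to 4 and 7 of 12 with 5 or more, and higher RNA for none. Of 825 genes with neither, 1.33% were higher and 8.12% lower in the authors' deposited table.

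**Figure D5:**
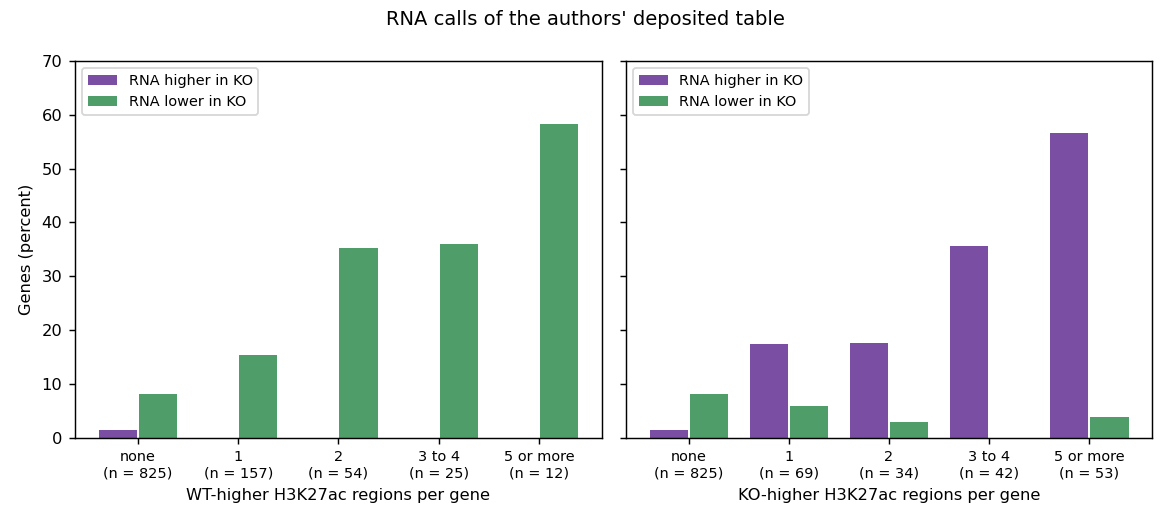
Percent of genes (vertical axis) called higher or lower in KO in the authors' deposited table, by the number of WT-higher (left) or KO-higher (right) H3K27ac regions per gene, with the number of genes under each pair of bars. The share with higher RNA is 17.4% at 1 KO-higher region and 56.6% at 5 or more, and the share with lower RNA is 15.3% at 1 WT-higher region and 58.3% at 5 or more.

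Single genes followed this in part, and those named here were chosen after their values were seen. Abca1, with 9 KO-higher regions, had a log2 fold change of 2.83 in the authors' deposited table (FDR 8.6e-113), and Scd2, with 20, had 1.72 (FDR 1.23e-81). Lpcat3, with 12 KO-higher regions, had a log2 fold change of 1.04 in the authors' deposited table (FDR 8.76e-45), and Abcg5, with 15, had 1.23 (FDR 6.38e-56). Ezr, the gene of the microvillus linker ezrin, had 19 regions and a log2 fold change of 0.40 in the authors' deposited table (FDR 7.09e-06). Other genes with KO-higher regions did not follow. Ephb2, a receptor gene with 2, had lower RNA in the authors' deposited table (log2 fold change -0.37, FDR 0.00162), and Scd3, with 8, Cps1, with 2, and Pck1, with 3, did not pass the FDR in the authors' deposited table. On the WT-higher side, Rbfox3, a splicing factor gene of neurons, had -2.37 (FDR 2.63e-14) in the authors' deposited table. Rbfox3 had 6 WT-higher regions by nearest start, and the fifth WT-higher cluster also lies within the gene. Padi3, with 11 WT-higher regions, had a log2 fold change of -2.12 (FDR 1.18e-05) in the authors' deposited table, and Podxl, with 9, had -0.60 (FDR 6.77e-08). Dynlt1b (-0.18), Schip1 (-0.08) and Vgll4 (0.07) did not pass the FDR in the authors' deposited table, with 10, 8 and 6 WT-higher regions.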

How the data were processed

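H3K27ac ChIP-seq libraries of WT and KO jejunal epithelium (1 each) were sequenced for 50 cycles, per the labels' protocols, and aligned to mm9. Per the submitters' processing notes the tools included Bowtie2 2.2.9, MACS2 2.1.1 and HOMER 3.12. The headers instead give MACS version 2.0.10.20130419 and tags of 75 bp, which was not resolved.

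Each library was called against that of the other genotype, with 1 tag per position and q under 0.05, per the file headers. The deposited pileup is a signal at the summit, the deposited fold is a ratio of pileup to the other library's local background with 1 added to both, and significance is deposited as -log10 of the p-value and q-value. The other genotype's background was computed as (pileup + 1)/fold - 1. After allowing for library scaling it was within 0.01 of a whole number in 85.1% of WT-higher and 84.5% of KO-higher regions. For RNA, the authors' log2 fold change and FDR (an adjusted p-value) come from a deposited table, positive values being taken as higher in KO because HOMER writes the second-named group over the first. Its 12 per-library columns were not used.

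Summits were joined to GENCODE M1 genes of mm9 (promoter within 1 kb, then exon, intron, intergenic), and 399 of 412 listed genes matched. Overlap needed 1 bp. Scripts (Python 3.11.15) were tested on simulated data. No test between genotypes was possible with 1 library each. Named genes were Ncor1, those of the 10 highest folds and -log10 q per direction, the 5 genes and clusters with the most regions, and up to 4 members per list and direction by fold. Others were chosen after their values were seen. Members and lists were chosen with earlier results of these data known. Chromosome 18 and the input libraries were not analysed here, and some list members are not reported here.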

Additional observations from a re-analysis of the deposited data

How the results depend on the processing

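The KO-higher share of regions stayed above 67% in every alternative: 79.4% at -log10 q from 5, 67.6% with folds of at least 4 and 72.1% with regions merged within 1 kb. Promoters held 41.9% of WT-higher and 17.03% of KO-higher regions at 2.5 kb, 33.6% and 6.77% at -log10 q from 5, and 14.3% and 6.44% at a GC content of 50 to 60%. The KO-higher promoter share was 7.06% in a list of equal length. Clusters held 8.69% of WT-higher and 37.9% of KO-higher regions with gaps of at most 5 kb, 5.19% and 41.8% after merging, and 32.2% of KO-higher regions at equal length. WT-higher genes numbered 867 at -log10 q from 5. H3K9ac met 13.6% of WT-higher and 9.21% of KO-higher regions at the stricter overlap of 0.5 of the region, and 11.99% of KO-higher regions at -log10 q from 5. WT-higher shares exceeded KO-higher shares at promoters, and KO-higher shares exceeded WT-higher shares in clusters, in each of these alternatives. Leaving out the stretches at Vil1, Mt1 and Dynlt1b, chosen after seeing the data, moved none of these values beyond its interval.

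Of 138 alternatives for gene list counts, 107 stayed within 1.5 times the count reported. Motif shares rose in windows of 250 bases to either side, to 32.5% of KO-higher and 24.4% of WT-higher windows for the half-site. No paired analysis was possible because there was 1 library per genotype. For the same reason no replicate could be left out. Small folds were listed at high pileups only, and how depth limits the lists was not tested.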
